A study of Triticum aestivum with 78 samples.

Results

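Transcripts of 2 wheat fructan exohydrolase genes, 6-FEH and 1-FEH, were measured in developing seed of 39 lines of the RL4452 x AC Domain mapping population. The genes were represented by every probe set that the array's annotation assigned to either gene: 3 probe sets for 6-FEH (Ta.30950.1.A1_x_at, Ta.9641.1.A1_a_at and TaAffx.93410.1.S1_at) and 1 for 1-FEH (Ta.199.1.S1_at), which is 4 of the 61115 probe sets tested, and 2 of the 771 genes with an annotated probe set. The first 3 are called the x_at, a_at and TaAffx probe sets of 6-FEH. Each line was sampled in 2 biological replicates, which gave 78 Affymetrix wheat arrays. The groups are the lines, told apart by their genotype; all were field-grown in the same season, with no treatment given in the labels, and were sampled 5 days after anthesis. A sample was a tube of whole seeds, so that pericarp, endosperm and embryo were measured together. The labels give neither the field replication behind an array nor any stage measure other than days, and the parental lines were not analysed here.

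Fructans are polymers of fructose built on sucrose, which wheat and other temperate grasses keep as a soluble carbohydrate reserve in stems, leaf sheaths and very young grain. Fructan exohydrolases remove fructose units one at a time from the end of the chain. In wheat, 1-FEH acts mainly on inulin-type linkages and 6-FEH on levan-type linkages, and both proteins are close relatives of cell wall invertases. Wheat is hexaploid and carries similar copies of most genes, so a probe set can register more than 1 copy. In Affymetrix naming, the suffix _x_at marks a probe set with some probes shared with other sequences, and _a_at marks probes common to alternative transcripts of a gene. The 3 probe sets of 6-FEH may therefore report different copies or transcripts of that gene, and the files do not say which.

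Levels are log2 of the deposited normalized intensities, and a difference of 1 is a 2-fold difference in intensity. A probe set's level reflects how strongly its probes bind as well as the amount of transcript, so the places given next are rough. The mean levels of the x_at probe set, the a_at probe set and 1-FEH exceeded those of 88.6%, 88.4% and 85.6% of all probe sets, and that of the TaAffx probe set exceeded 70.2%. All 4 lay above the median of all probe sets (5.07). Among marker genes, 9 of 15 for storage and inhibitor proteins of the endosperm had a probe set that reached that median, as did 5 of 5 for histones, 3 of 3 for photosynthesis, 1 of 5 for late embryogenesis proteins and 1 of 2 for the anther tapetum. A gene counted if any of its probe sets did. By probe set the counts were 13 of 28, 18 of 18, 7 of 31, 2 of 10 and 1 of 4, where the median splits all probe sets evenly. Array medians ran from 32.1 to 36.4 in linear intensity. The second array of line H8 stood apart: 19313 probe sets differed between H8 and the mean of the other lines when both its arrays were used, and 58 did when the second array was left out. The results it touches most are given with and without it.

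Of the 4 probe sets, x_at varied most between lines. Its lowest array was the second of line E5 at 6.34, its median array stood at 9.10 and its highest array was the first of line B65 at 10.69. Line J15 was the highest, with 10.45 and 10.39 on its arrays and a mean of 10.42 ± 0.04 (SD, n = 2). It was followed by H23 (10.66 and 9.73, mean 10.19 ± 0.66) and A40 (10.19 and 10.17, mean 10.18 ± 0.01). In J15 and A40 the arrays lay almost on top of each other, whereas those of H23 were nearly 1 unit apart. At the other end, E5 read 7.65 and 6.34 (mean 7.00 ± 0.93). C58 read 7.82 and 6.92 (7.37 ± 0.64) and H10 read 7.98 and 6.79 (7.38 ± 0.84). All arrays of the 3 highest lines were above all arrays of the 3 lowest lines, which were picked by these same arrays. J15 exceeded E5 10.7-fold, a range that became 8.30-fold without the second array of E5, when C58 was the lowest line, and 16.9-fold without the first. Across all probe sets the median range over lines was 1.67-fold, and it was 1.91-fold among those at or above the median level. The SD between line means, 0.91, exceeded that of 98.4% of the latter.

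Between these ends the line means of the x_at probe set were spread over the range. A total of 7 lines had means below 8, 9 lines between 8 and 9, 11 between 9 and 9.5, 8 between 9.5 and 10, and 4 at 10 or above. The highest group was J15, H23, A40 and B65, and B33 (10.55 and 9.44) lay just under 10. The lowest group was DH91, A35, A81, DH95, H10, C58 and E5. Replicates of DH91 (7.82 and 8.08), A35 (7.91 and 7.77) and A81 (7.69 and 7.80) were close together. Other lines had arrays far apart: G13 read 7.42 and 9.49, G30 read 9.00 and 7.13, and D39 read 8.87 and 7.50, so that each of these 3 had 1 array among low lines and 1 near the median array. The median gap between neighbouring line means was 0.06. The widest gap, 0.37, separated E5 from C58, and the largest with 6 or more lines on both sides, 0.34, separated 14 lines at or below 8.54 from 25 lines at or above 8.88. The standard error of a difference between lines was 0.58, so no neighbours in the order differed beyond their error. By a least significant difference of 1.16, not adjusted for the number of pairs, 23 lines lay below J15 and 31 lay above E5.

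**Figure D1:**
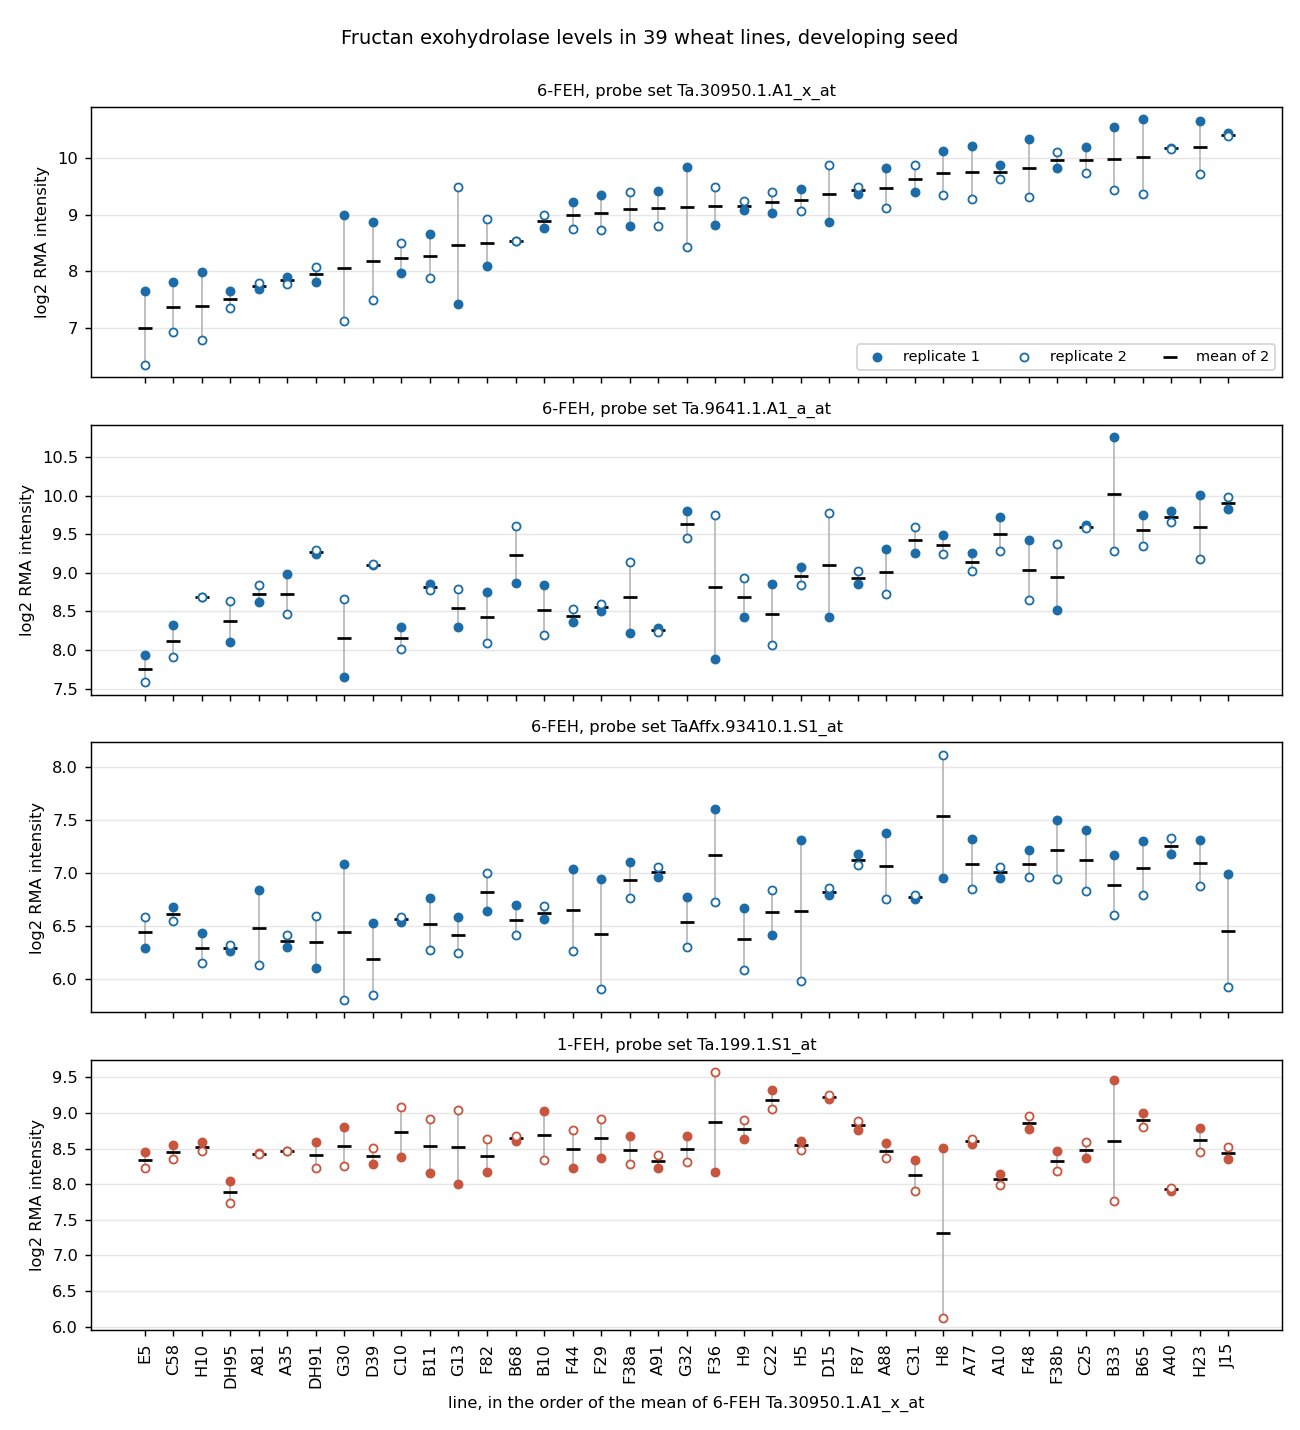
Log2 RMA intensity of the 4 probe sets in each of 39 lines (2 arrays per line as points, their mean as a bar), with lines ordered from left to right by the mean of the x_at probe set, from E5 (7.00) to J15 (10.42); filled points are replicate 1 and open points replicate 2. In the panels beneath it, the a_at probe set rises along the same order, the TaAffx probe set does so over a smaller range, and 1-FEH does not, with the second array of H8 far below the others at 6.12.

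The question the design poses is whether lines differ by more than their replicates. It was tested with limma's moderated F over the 39 lines, with Benjamini-Hochberg adjustment over all 61115 probe sets. Of all probe sets 6.69% passed, and of the 4 fructan exohydrolase probe sets 2 passed, both of them for 6-FEH. For x_at, F was 4.95 with an adjusted p of 3.6e-05 and a rank of 879 among all probe sets. Variance between lines made up 0.64 of its total (the intraclass correlation), with a residual SD of 0.60. For a_at, F was 3.05, with an adjusted p of 0.00691 and an intraclass correlation of 0.48. The TaAffx probe set (adjusted p = 0.512, intraclass correlation 0.14) and 1-FEH (adjusted p = 0.681, intraclass correlation 0.06) did not pass in limma. The median intraclass correlation was 0.05 over all probe sets and 0.09 among those at or above the median level. With scan day as a term the adjusted p of the first 2 probe sets were 0.00244 and 0.0453 in limma. The arrays are of whole seed, where fewer cells of a type and less RNA per cell cannot be told apart.

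The a_at probe set, the other 6-FEH probe set with a difference between lines, spanned 7.58 in the second array of E5 to 10.76 in the first array of B33, with a median array of 8.86. Its highest lines were B33 (10.76 and 9.29, mean 10.02 ± 1.04), J15 (9.83 and 9.99, mean 9.91 ± 0.11) and A40 (9.80 and 9.65, mean 9.73 ± 0.10). Its lowest were E5 (7.94 and 7.58, mean 7.76 ± 0.26), C58 (8.33 and 7.91, mean 8.12 ± 0.29) and G30 (7.65 and 8.66, mean 8.15 ± 0.71). J15 and A40 were thus among the 3 highest lines of both probe sets, and E5 and C58 among the 3 lowest of both. B33 exceeded E5 4.80-fold, and 7.99-fold without the second array of B33. The standard error of a difference between lines was 0.44 and the largest gap between neighbours was 0.36, between C58 and E5. Every gap was thus smaller than the error here too, which does not tell a graded order from overlapping classes of lines.

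The TaAffx probe set ranged from 5.80 in the second array of G30 to 8.11 in the second array of H8, with a median array of 6.77. Its highest lines were H8 (6.95 and 8.11, mean 7.53 ± 0.82), A40 (7.18 and 7.32, mean 7.25 ± 0.11) and F38b (7.50 and 6.94, mean 7.22 ± 0.39). Its lowest were D39 (6.53 and 5.86, mean 6.19 ± 0.48), H10 (6.43 and 6.16, mean 6.29 ± 0.19) and DH95 (6.26 and 6.33, mean 6.29 ± 0.04). A40 was the only line among the 3 highest of all 3 probe sets of 6-FEH. H8 exceeded D39 2.53-fold, and without the second array of H8 the range was 2.08-fold with A40 highest. J15, the highest line by the x_at probe set, read 6.99 and 5.93 here and was 29th of 39, with its arrays on either side of the median array.

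1-FEH varied less between lines than 6-FEH x_at and a_at, with an SD between line means of 0.34 against 0.91 and 0.54. The TaAffx probe set of 6-FEH had an SD of 0.33, close to that of 1-FEH. The low extreme of 1-FEH was 1 array. 1-FEH read 6.12 in the second array of H8, 8.48 in the median array and 9.57 in the second array of F36. D15 was the highest line, with 9.20 and 9.25 and a mean of 9.22 ± 0.04. C22 (9.32 and 9.06, mean 9.19 ± 0.18) and B65 (9.00 and 8.80, mean 8.90 ± 0.14) followed. These 3 lines, picked by the same arrays, had all arrays above the median array. The lowest lines were H8 (8.50 and 6.12, mean 7.31 ± 1.68), DH95 (8.04 and 7.74, mean 7.89 ± 0.22) and A40 (7.90 and 7.95, mean 7.93 ± 0.03). A40 thus read low in 1-FEH and high in 6-FEH on both of its arrays. Against the mean of the other lines it did not pass at any of the 4 probe sets (limma, smallest adjusted p = 0.461, at x_at). Its log2 differences there were 1.24 at x_at and -0.59 at 1-FEH. D15 exceeded H8 3.76-fold. Without the second array of H8 the range was 2.52-fold with DH95 lowest, and without its first array it was 8.58-fold. J15 (8.36 and 8.52) and E5 (8.46 and 8.23), the ends of the x_at order, were close together in 1-FEH, and their means differed by less than the standard error of a difference between lines, 0.43.

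With 2 arrays, the difference between them is only a rough guide to the error of a single line, so the differences are summarized over lines. The median difference between the arrays of a line was 0.61 for the x_at probe set, 0.40 for the a_at probe set, 0.43 for the TaAffx probe set and 0.26 for 1-FEH. The largest were 2.07 in G13, 1.87 in F36, 1.32 in H5 and 2.38 in H8, in the same order of probe sets. The replicates differed by more than the SD between line means in 12, 13, 23 and 15 lines. For the x_at probe set, 14 lines had both arrays below the median array, 14 had both above and 11 were split, whereas for 1-FEH 9 were below, 9 above and 21 split. All 3 probe sets of 6-FEH had both arrays below their median array in 7 lines (B10, B11, C10, C58, DH95, E5 and H10). All 3 had both above in 8 lines (A10, A40, A77, B65, C25, F87, H23 and H8).

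Across the 39 lines, replicate 1 was correlated with replicate 2 for the x_at probe set (Pearson's r = 0.67, Spearman's rho = 0.62, permutation test, adjusted p = 4e-05 and 0.00024 over the 4 probe sets). Without C58 and E5, the lines farthest from the median, r was 0.615 (adjusted p = 0.00012). For the a_at probe set r was 0.47 and rho 0.50 (permutation test, adjusted p = 0.00404 and 0.00276), and r was 0.43 without B33 and E5. The TaAffx probe set had r = 0.26 and rho = 0.35 (permutation test, adjusted p = 0.142 and 0.0424), so that only the rank correlation passed. 1-FEH had r = 0.06 and rho = 0.06 (permutation test, adjusted p = 0.709 and 0.702), and r was 0.07 without H8. The order of lines by 1-FEH in 1 replicate was therefore not detectably repeated in the other.

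**Figure D2:**
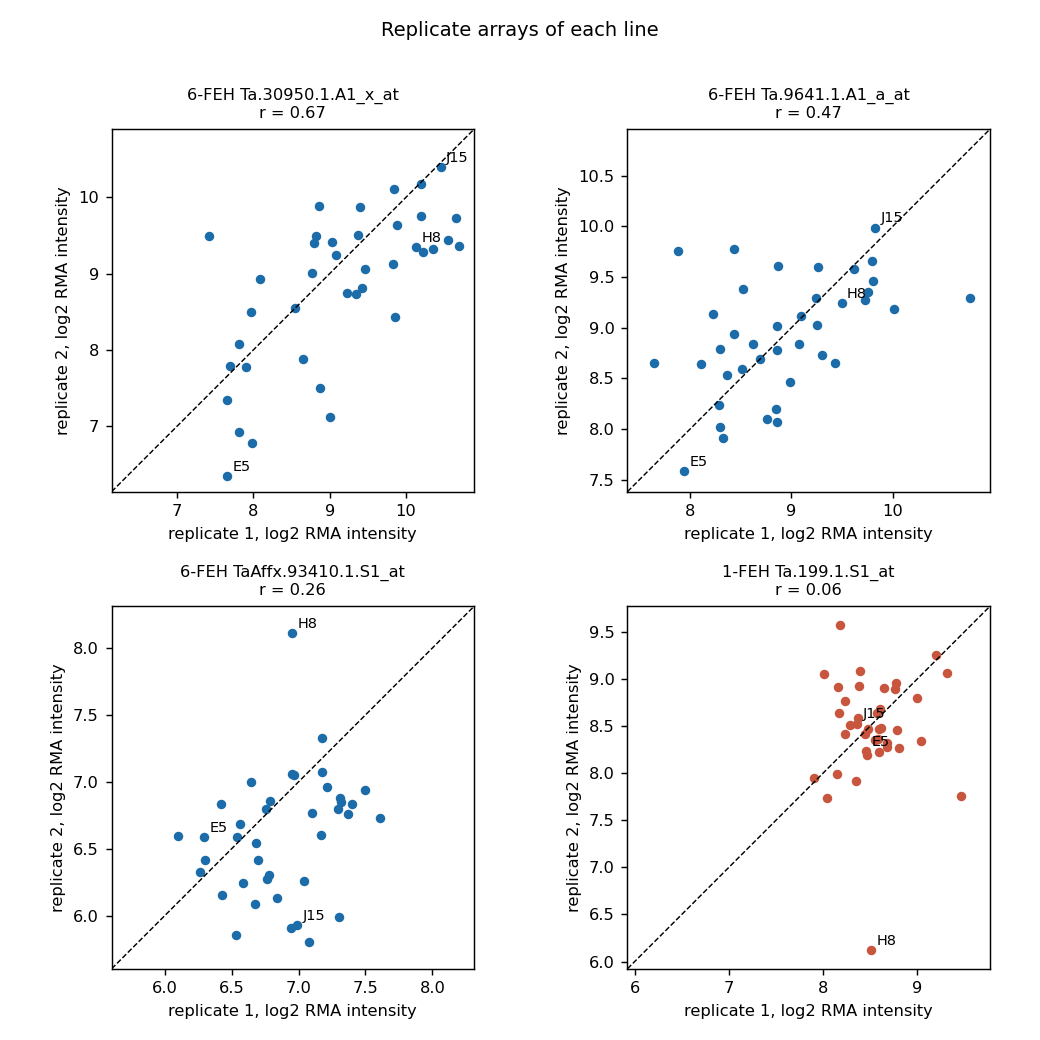
Replicate 1 (x axis) against replicate 2 (y axis) in log2 RMA intensity, 1 point per line (39 lines) and 1 panel per probe set, with a dashed line of equality. Points spread along the line for the x_at probe set (r = 0.67) and the a_at probe set (r = 0.47) and form a cloud for 1-FEH (r = 0.06), with H8 far below it.

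Replicate 2 was also set against replicate 1 over all lines, with line as a block in limma. All arrays of a replicate number carried 1 of 2 project names in the instrument records, and scans of the 2 replicates shared 1 of 15 scan days, so replicate number, project and most scan days cannot be told apart. The TaAffx probe set was lower in replicate 2, with means of 6.89 and 6.60 and a difference of -0.29 (SE 0.08, limma, adjusted p = 0.00554). It was higher in replicate 2 in 14 of the 39 lines. Of all probe sets 13.2% were lower in replicate 2 by the same rule and 15.5% were higher, so a call in this comparison was common. The x_at probe set differed by -0.29 (SE 0.12, limma, adjusted p = 0.0763), the a_at probe set by less than 0.01 and 1-FEH by -0.06, and none of these passed.

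Agreement between probe sets and genes was measured over the 39 line means in 6 pairs, with permutation tests adjusted over the 6. 6-FEH x_at was correlated with the a_at probe set (r = 0.72, rho = 0.73, permutation test, adjusted p of r = 3e-05, from the smallest p the permutations can give) and with the TaAffx probe set (r = 0.71, rho = 0.74, same adjusted p). The a_at and TaAffx probe sets were less closely related to each other (r = 0.40, rho = 0.38, permutation test, adjusted p of r = 0.0264). Probe sets read from the same array share its RNA and hybridization, so each pair was also taken within a replicate and across replicates, with 1 probe set read in each. For the x_at probe set with the a_at probe set, r was 0.70 within replicate 1, 0.59 within replicate 2 and 0.52 and 0.46 across replicates. With the TaAffx probe set it was 0.74 and 0.45 within and 0.35 and 0.59 across, where 0.35 did not pass (permutation test, adjusted p = 0.0813). For the a_at probe set with the TaAffx probe set, r was 0.27 and 0.11 within replicates and did not pass in either (permutation test, adjusted p = 0.138 and 0.706). Across replicates it was 0.28 and 0.45, of which only the latter passed (permutation test, adjusted p = 0.119 and 0.00826). Leaving out the 2 farthest lines gave 0.65, 0.74 and 0.37 for the 3 pairs. With replicate number and scan day removed, the first 2 pairs had r = 0.70 and 0.56, and the a_at and TaAffx probe sets no longer passed (r = 0.13, permutation test, adjusted p = 0.662).

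The extreme lines of the 6-FEH probe sets overlapped in part, as some would in unrelated orders. Of the 10 highest lines of the x_at probe set, 7 were among the 10 highest of the a_at probe set (A10, A40, B33, B65, C25, H23 and J15). Of the 10 lowest, 5 were shared (C10, C58, DH95, E5 and G30). With the TaAffx probe set, 6 of the 10 highest and 7 of the 10 lowest were shared. The a_at and TaAffx probe sets shared fewer, with 4 of the 10 highest and 3 of the 10 lowest. The pairs of 6-FEH with 1-FEH shared 1 to 3 of the 10 highest and 3 or 4 of the 10 lowest. The number to be shared by unrelated orders was not computed.

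None of the 3 pairs of 6-FEH with 1-FEH passed. Over line means 1-FEH had r = 0.05 with the x_at probe set, -0.13 with the a_at probe set and -0.17 with the TaAffx probe set, and rho = 0.14, -0.04 and 0.06 (permutation tests, adjusted p of r = 0.767, 0.534 and 0.468). The sign of the last pair rested on H8, which was highest in the TaAffx probe set and lowest in 1-FEH on its second array, and r was 0.08 without that line. Within replicate 2 this pair had r = -0.41 (permutation test, adjusted p = 0.026), and within replicate 1 it had r = 0.06. With the a_at probe set, r was 0.26 within replicate 1 and -0.09 within replicate 2. Of the 10 highest lines of the x_at probe set, 2 were among the 10 highest of 1-FEH and 3 among its 10 lowest. The weak repeatability of 1-FEH limits what such a correlation could show.

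**Figure D3:**
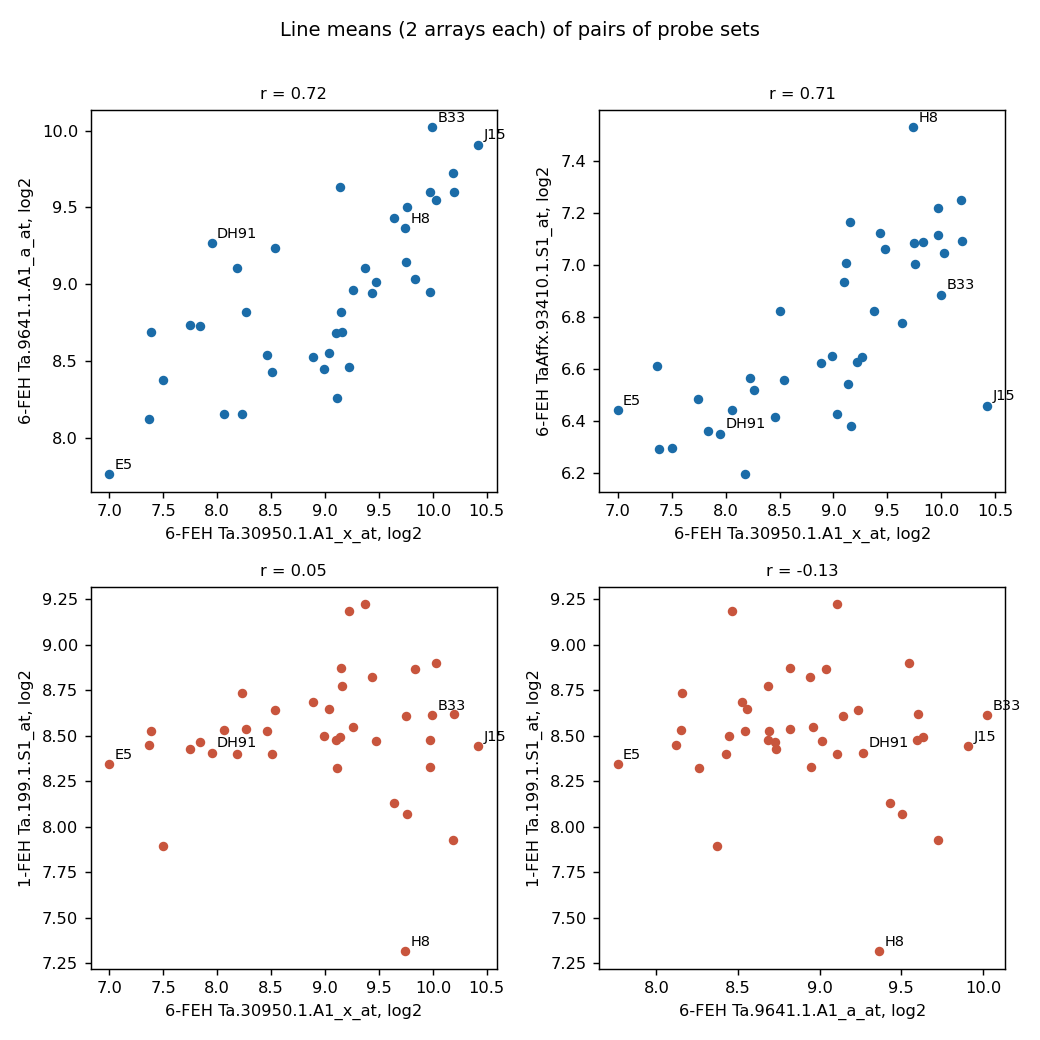
Line means (2 arrays each, log2 RMA intensity) of pairs of probe sets, 1 point per line: the x_at probe set on the x axis against the other 6-FEH probe sets and 1-FEH, and the a_at probe set against 1-FEH. The upper panels rise from E5 towards the upper right (r = 0.72 and 0.71), with J15 low in the second, and the lower panels show no slope (r = 0.05 and -0.13).

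**Figure D4:**
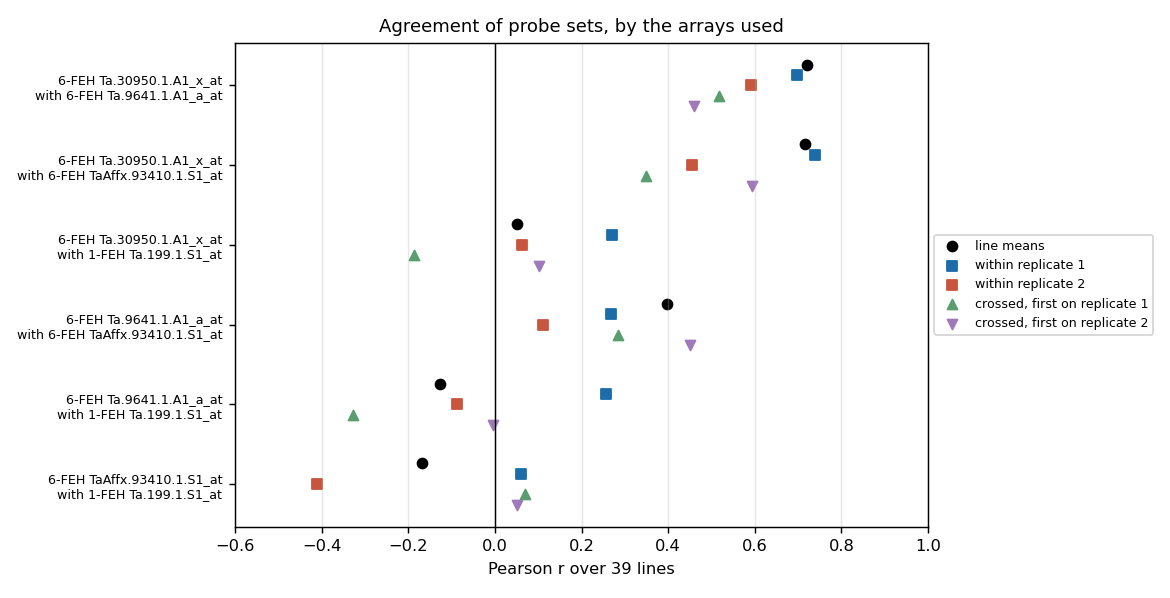
Pearson's r over 39 lines (x axis) for the 6 pairs of probe sets (y axis), from line means, within each replicate and across replicates. The pairs of the x_at probe set with the other 6-FEH probe sets lie between 0.35 and 0.74 in every setting, and those with 1-FEH fall on both sides of 0.

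Whether probe sets of the same gene departed from each other in particular lines was tested on the difference between them on the same array, with a one-way F over lines and 100000 permutations of the arrays, adjusted over 6 pairs. The difference of x_at less a_at varied between lines (F = 2.20, permutation test, adjusted p = 0.013). It was highest in F38b, at 1.32 and 0.73 on its arrays, and lowest in DH91, at -1.43 and -1.21. These lines were picked by the same arrays. Only the spread between lines has meaning here, since the binding of the probes sets the zero. DH91 read 7.82 and 8.08 on the first probe set, among the 7 lowest lines, and 9.25 and 9.29 on the second, where it was 11th of 39. That of x_at less TaAffx also varied (F = 2.86, permutation test, adjusted p = 0.00126), from 3.96 in J15 to 0.56 in E5. With each probe set scaled to an SD of 1, which removes the larger range of the first, neither difference passed (permutation tests, adjusted p = 0.218 and 0.724). That of a_at less TaAffx did not vary detectably between lines (F = 1.13, permutation test, adjusted p = 0.369).

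Differences between the genes were taken in the same way. The SD between line means of 1-FEH, 0.34, exceeded that of 84.4% of probe sets at or above the median level. Its genotype effect did not pass, however, so a difference from it also carries the 6-FEH probe set's own genotype effect. How much of each result below comes from that effect was not tested. The value of x_at less 1-FEH ran from 2.43 in H8 to -1.35 in E5 (F = 5.07, permutation test, adjusted p = 6e-05), and that of a_at less 1-FEH from 2.05 in H8 to -0.72 in C22 (F = 3.57, permutation test, adjusted p = 9e-05). Both also passed after scaling (adjusted p = 0.008 and 0.004, permutation tests). The high end in both was H8, whose second array was the lowest of all for 1-FEH. Without H8 the highest line was A40 in both, at 2.26 and 1.80, and both still passed (F = 4.95 and 3.90, permutation tests, adjusted p = 6e-05 and 0.00012). That of TaAffx less 1-FEH did not pass (F = 1.12, permutation test, adjusted p = 0.369).

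Single lines were then set against the mean of the remaining 38 in the same limma fit, with p-values adjusted over all probe sets within each line. Over the 39 lines, 1.05% of these comparisons passed (24998 calls, 19313 of them in H8). For the 4 fructan exohydrolase probe sets 3 of 156 did. 6-FEH x_at was lower in E5, at 7.00 against 9.02, by -2.02 on the log2 scale or 4.07-fold (SE 0.41, limma, adjusted p = 0.0149). In E5, 0.121% of all probe sets were called lower and 0.113% higher. The call ended without its second array, which left a difference of -1.37 (limma, adjusted p = 1). The next lowest lines C58, H10 and DH95 differed by -1.64, -1.63 and -1.51 and did not pass (limma, adjusted p = 0.133, 0.112 and 0.101), nor did J15 at 1.49 (limma, adjusted p = 0.186). B33 was higher in the a_at probe set by 1.13 without passing (limma, adjusted p = 0.084).

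The other 2 calls were in H8, where 17.1% of all probe sets were called higher and 14.5% lower. There the TaAffx probe set was higher, at 7.53 against 6.72, by 0.81 or 1.75-fold (SE 0.28, limma, adjusted p = 0.0266). 1-FEH was lower, at 7.31 against 8.53, by -1.22 or 2.33-fold (SE 0.31, limma, adjusted p = 0.00299). Without the second array of H8 the differences were 0.23 and -0.03 and neither passed. On its first array H8 lay close to the mean of the other lines in both.

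The list of other starch and sucrose genes was drawn by name from the probe sets with a gene annotation, 1273 of 61115. It held 6 probe sets of 5 genes, and it counted PMM, a phosphomannomutase, among them. Genes without an annotated probe set and enzymes of fructan synthesis were not analysed here. Lines differed in 3 of the 6, where 6.69% of all probe sets passed. These were GBSS, which makes amylose (limma, adjusted p = 1.02e-05), BMY1, a beta-amylase (adjusted p = 0.0212), and PMM Ta.3539.2.S1_x_at, a phosphomannomutase (adjusted p = 0.0387). GBSS is also counted in the storage and inhibitor list used below. AGP-S, the small subunit of the enzyme that supplies ADP-glucose to starch synthesis, PMM Ta.29895.2.A1_at and the invertase IVR1, whose level was below the median of all probe sets, did not pass (limma, adjusted p = 0.589, 0.83 and 0.976). With scan day as a term BMY1 and PMM Ta.3539.2.S1_x_at no longer passed (limma, adjusted p = 0.156 and 0.458). The median intraclass correlation of all 6 was 0.30, against 0.05 over all probe sets and 0.09 among those at or above the median level.

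These 6 probe sets were correlated with the 4 fructan exohydrolase probe sets over line means, 24 relations in all. Of these, 3 passed on r, and none of the 3 passed across replicates. 1-FEH rose with AGP-S (r = 0.54, rho = 0.49, permutation test, adjusted p = 0.0116 and 0.0367). It held without the 2 farthest lines, D15 and H8 (r = 0.50, permutation test, adjusted p = 0.0492), and not without H8 alone (r = 0.47, adjusted p = 0.0772, permutation test). Within replicates r was 0.11 and 0.38, and across them 0.26 and 0.36. 1-FEH fell with PMM Ta.29895.2.A1_at (r = -0.56, permutation test, adjusted p = 0.0115), but not by rank (rho = -0.30, adjusted p = 0.26) and not without H8 (r = -0.37, permutation test, adjusted p = 0.165). The x_at probe set rose with BMY1 (r = 0.43, permutation test, adjusted p = 0.0477), but not by rank (rho = 0.36, adjusted p = 0.26), and the relation rested on C58 and E5 (r = 0.27 without them, permutation test, adjusted p = 0.327). Within replicate 2 alone, 3 relations passed, namely x_at with BMY1 (r = 0.53, permutation test, adjusted p = 0.013), 1-FEH with PMM Ta.29895.2.A1_at (r = -0.53, permutation test, adjusted p = 0.0277) and the TaAffx probe set with AGP-S (r = -0.43, permutation test, adjusted p = 0.0491). With GBSS, x_at had r = -0.15 (permutation test, adjusted p = 0.784), although J15, the highest line of x_at, was the lowest in GBSS at 7.67 and 7.18.

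Marker lists of seed tissues were set beside the fructan exohydrolases in the same way, as the mean over each list's probe sets at or above the median level. None of 20 correlations passed with all 39 lines. The largest were those of histones, whose genes are active in dividing cells, with the x_at probe set (r = 0.42) and the a_at probe set (r = 0.44), and that of late embryogenesis proteins with the TaAffx probe set (r = -0.42), each with an adjusted p of 0.0569 by permutation test. The histone mean itself did not repeat between replicates (r = -0.09), and the late embryogenesis mean rested on 1 gene. The endosperm storage and inhibitor mean, which did repeat (r = 0.54), had r = 0.37 with 1-FEH, 0.03 with the x_at probe set and -0.33 with the a_at probe set (permutation tests, adjusted p = 0.105, 0.883 and 0.166). Of its probe sets 12 of 28 had a genotype effect, among them that of GBSS, which is also in the starch and sucrose list. The share over all probe sets was 6.69%, and 0 of 18 histone and 1 of 31 photosynthesis probe sets had such an effect. Without H8, 3 correlations passed: histones with x_at (r = 0.45) and with a_at (r = 0.47), and the storage and inhibitor mean with 1-FEH (r = 0.46), each with an adjusted p of 0.0338 by permutation test on r, and none of them by rank. That of late embryogenesis proteins with the TaAffx probe set was then -0.33 (permutation test, adjusted p = 0.162). The part of seed composition in the 6-FEH differences was not tested.

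Probe sets whose line means ran most like those of the fructan exohydrolases are given as a description, from 30554 probe sets at or above the median level, 123 of them with a gene name. Correlations over the same 39 line means share the arrays, so the values across replicates are given too. The x_at probe set was most like the unannotated Ta.9580.2.S1_x_at (r = 0.91, and 0.58 and 0.64 across replicates), followed by Ta.1398.3.S1_x_at and TaAffx.53419.1.S1_s_at (both r = 0.89). Among named genes it was most like PRO1 (r = 0.69, and 0.35 and 0.48 across), NCBP, a cap-binding protein (r = 0.68), and ALP Ta.27777.1.S1_at, an avenin-like protein (r = 0.62). The most opposite named genes were TUBA Ta.723.1.S1_at, an alpha-tubulin (r = -0.76, and -0.55 and -0.48 across), and DMAS1, an enzyme of the iron-chelating mugineic acids (r = -0.62). Among all probe sets searched they ranked 29 and 722 from the lowest r. TUBA read 9.08 and 9.34 in E5 and 7.28 and 8.35 in J15. A total of 742 probe sets had r of 0.7 or more with x_at, and 170 had -0.7 or less. Leaving out H8 moved none of these named values by more than 0.04.

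The a_at probe set had ALP (r = 0.55), NCBP (r = 0.54) and PEAMT1, a methyltransferase of choline synthesis (r = 0.53), as its nearest named genes and TUBA (r = -0.68) and H+-ATPase (r = -0.59) as the most opposite, so ALP, NCBP and TUBA were named for both probe sets. Here 30 probe sets reached 0.7, led by Ta.5056.1.A1_a_at (r = 0.81). For the TaAffx probe set, 577 probe sets reached 0.7 and 857 had -0.7 or less, and the nearest was the unannotated TaAffx.112304.2.S1_at (r = 0.88). Its nearest named genes were GA20ox1d, a gibberellin oxidase (Ta.141.1.S1_x_at, r = 0.68), and PER1 (r = 0.66). Across replicates these were 0.09 and 0.09, and 0.11 and 0.02, so the likeness was not found across replicates. Its most opposite named genes were another probe set of DMAS1 (r = -0.74) and TUBA (r = -0.70, and -0.50 and -0.49 across). 1-FEH had the fewest like it, with 4 probe sets at 0.7 or more. Its nearest named genes were CAT1, a catalase (r = 0.57, and 0.09 and 0.40 across), AGP-S (r = 0.54) and GAPN, a glyceraldehyde-3-phosphate dehydrogenase (r = 0.51), and its most opposite were PMM Ta.29895.2.A1_at (r = -0.56) and GA20ox1d Ta.141.1.S1_at (r = -0.46). Without H8 the values for these 5 genes were 0.40, 0.47, 0.31, -0.37 and -0.17, all nearer to 0.

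**Figure D5:**
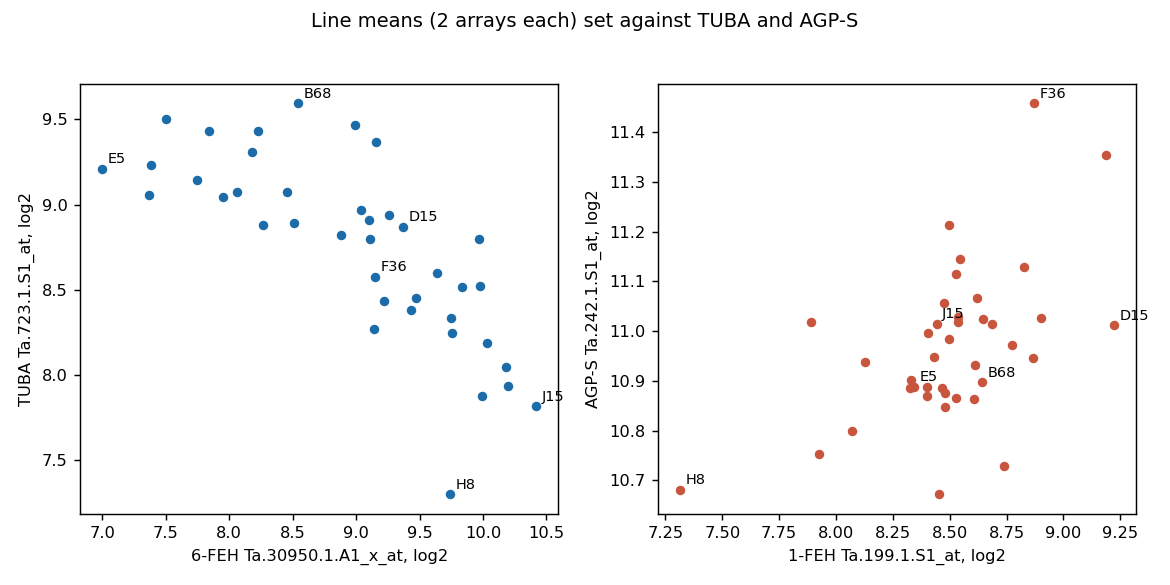
Line means (2 arrays each, log2 RMA intensity) of TUBA against 6-FEH and of AGP-S against 1-FEH, 1 point per line for 39 lines. In the left panel TUBA falls as the x_at probe set of 6-FEH rises (r = -0.76), and in the right panel AGP-S rises with 1-FEH (r = 0.54), with H8 at its lower end.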

How the data were processed

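Log2 was taken of the deposited intensity values with no constant added. Per the submitters' processing notes, the authors made these linear intensities with RMA, which subtracts background, normalizes arrays to a common distribution and summarizes probes, with no version given. Raw probe intensities were not analysed. The 78 columns hold 61290 probe sets, of which 111 controls and 64 reporters were not tested. With 2 arrays per line, their number limits the precision. The labels call replicates biological without saying which plots they came from, so p-values measure only the spread between these samples.

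Gene symbols came from the platform annotation and were checked against a RefSeq table used for names only. Every probe set annotated to 6-FEH or 1-FEH was described. The members, lists and tests were chosen with earlier results of these data known. The rule for other names took, at or above the median level, the 3 named and 3 other probe sets with the highest r and the 2 named with the lowest r for each member (those that add to the description are given), starch and sucrose genes with a genotype effect, and the 3 highest and lowest lines. The other starch and sucrose genes and lines DH91, DH95 and B33 were named after their values were seen.

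Tests used R 4.3.3 with the packages limma 3.58.1 and data.table, version 1.17.8, with Benjamini-Hochberg adjusted p below 0.05: a moderated F over lines, each line against the mean of the others, and replicate 2 against 1. The fits were tested on simulated data. Two-sided permutation tests (100000 permutations) and figures used Python 3.11.15 with numpy 2.4.6, pandas 2.3.3, scipy 1.17.1 and matplotlib 3.10.9. Alternatives were a replicate block, scan day, a filter on low values, a constant of 16, centring, quantile normalization, a trended prior, array weights and leaving out each array.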

Additional observations from a re-analysis of the deposited data

How the results depend on the processing

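The genotype effect of the x_at probe set and the a_at probe set stayed past the threshold under every alternative run. Leaving out 1 array gave limma adjusted p of 4.97e-06 to 0.000103 and 0.000529 to 0.0183, 0.184 to 0.632 for the TaAffx probe set, and 0.0209 to 0.783 for 1-FEH, where 0.0209 came without the first array of H8. With a replicate block the 4 adjusted p were 1.04e-05, 0.00704, 0.171 and 0.551 and 5622 probe sets passed. This block changed no call of the 4. The numbers coincide with the project names of the instrument records and so mark a shared set of scans, although replicate differences of 2 lines correlated from -0.57 to 0.69 (422 of 741 pairs over 0.1). Array weights turned the TaAffx probe set (0.0115) and 1-FEH (0.0145) to passing and raised the probe sets called from 4088 to 16855. Calls without 1 array ran from 3601 to 10729, the highest without the first array of H8. Line calls over the 4 probe sets numbered 9 with array weights, 1 without line H8, and 1 (without the second array of H8) to 5 (without the first of F36). The E5 difference of the x_at probe set ranged from -2.68 to -1.37, and those of H8 from 0.23 to 1.39 for the TaAffx probe set and -2.41 to -0.03 for 1-FEH. Fold ranges over lines ran from 8.30 to 16.9, 4.23 to 7.99, 2.08 to 3.78 and 2.52 to 8.58 for the 4 probe sets. Centring arrays turned the replicate shift of the a_at probe set to 0.0017. For the x_at probe set, r was 0.35 with the TaAffx probe set and -0.19 with 1-FEH with the first read in replicate 1 and the second in replicate 2. For the a_at probe set with the TaAffx probe set, r was 0.27 and 0.11 within replicates, 0.28 across and 0.13 with replicate number and scan day removed, and with 1-FEH it was 0.26 within replicate 1. The TaAffx probe set with 1-FEH gave 0.061 and -0.41 within replicates, 0.069 and 0.050 across, 0.20 without the 2 farthest lines and 0.076 without H8. The replicate r of 1-FEH was -0.022 without D15 and H8. Scaling gave adjusted p of 0.218 and 0.724 for the differences of the x_at probe set from the a_at probe set and the TaAffx probe set. Of the list correlations, 3 passed within replicate 1, 1 within replicate 2, 3 without H8 (histones with the x_at and a_at probe sets, and storage proteins with 1-FEH) and 2 with replicate number and scan day removed, and that of late embryogenesis proteins with the TaAffx probe set was 0.15 across replicates. Of the starch and sucrose correlations, a family added after seeing the data, 0 passed within replicate 1, 3 within replicate 2, 0 in either pairing across replicates, 1 without the 2 farthest lines, 0 without H8 and 2 with replicate number and scan day removed. Array weights and leaving out H8 for the line calls, leaving out H8 for the differences between probe sets, and removing replicate number and scan day for the list correlations were also chosen after seeing the data. The cause of these changes was not tested, apart from those where an array or line was left out. With 2 arrays per line, the least significant difference between 2 lines in 1-FEH was 0.87.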
